A study of Mus musculus with 49 samples.

Results

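Slc2a1, Slc2a3, Hk2 and Slc16a3 carry glucose from the medium into glycolysis and its end product out of the cell. They were chosen by current mouse gene symbol and are 4 of the 13852 genes named on the array, with 1 probe each. Slc2a1 (probe mMC009468, Entrez 20525) lies at chr4:119108745-119137330 in the mouse build GRCm38.p6, and Slc2a3 (mMC010179, Entrez 20527) at chr6:122727809-122802363. Hk2 (mMC018563, Entrez 15277) lies at chr6:82725025-82774454 and Slc16a3 (mMC003883, Entrez 80879) at chr11:120948484-120959000. Which exon or UTR a probe matches was not determined here, and no probe's level is set against another's.

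The study measured RNA of pluripotent lines and of mouse embryonic fibroblasts (MEF) on the way to reprogramming, on 49 one-colour arrays in 23 groups. The fibroblasts came from female OGXICR skin at D13.5 of development and were infected through a doxycycline-inducible lentiviral system. G6Gm, G3 and Dlx3RNAi are induced pluripotent stem cell (iPSC) lines of this strain, and Dlx3RNAi also carries a Dlx3 RNAi treatment. Their comparisons are with the embryonic stem cell (ESC) line R1, of strain 129, and with uninfected MEF. Each of these groups had 2 arrays and each pluripotent group is 1 line, grown on mitomycin C-treated MEF with PD0325901 and CHIR99021, which LIF could replace. Whether the feeder cells were removed is not given. A further ESC line, B6 of strain C57BL\6, had 3 arrays. The SKM groups received SOX2, KLF4 and MYC together with OCT4, GATA6, SOX7, PAX1, GATA4, CEBPa, HNF4a, GRB2 or MIXL1, or with an empty vector (SKM+EV), and MEF1 EV received the empty vector alone. The OKM groups received OCT4, KLF4 and MYC together with SOX1, SOX3, GMNN or SOX2, or with an empty vector (OKM+EV), and MEF2 EV is their empty-vector control. GATA4+SKM and OKM+EV had 3 arrays and the other infected groups 2.

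Glucose enters most cells by facilitated diffusion through transporters of the SLC2A family. Slc2a1 encodes GLUT1, which serves most dividing cells, and Slc2a3 encodes GLUT3, a high-affinity form known from neurons and the early embryo. Hk2 encodes hexokinase 2, which phosphorylates glucose so that it cannot leave again, and Slc16a3 encodes MCT4, which exports lactate with a proton and needs the chaperone basigin (Bsg) to reach the membrane. All 4 are known targets of the hypoxia-inducible factor (HIF), which binds sites with the core ACGTG or GCGTG, and MYC, which binds CACGTG, is known to raise several glycolytic genes. Pluripotent stem cells are known for a high rate of glycolysis.

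The promoters are shown because the 4 genes share these regulators in the literature and MYC is among the infected factors. Windows from 250 bases before to 50 bases after the start, from RefSeq on GRCm38.p6, were held for 3 of the 4 genes, and Slc2a3 is only named. They are chr4:119108495-119108794 on the plus strand for Slc2a1, chr6:82774405-82774704 on the minus strand for Hk2 and chr11:120948817-120949116 on the plus strand for Slc16a3. The Slc16a3 window lies wholly inside the gene span given above, so it is placed on a start further in than the first base of that span. Capitals mark ACGTG or its reverse complement CACGT.
Slc2a1: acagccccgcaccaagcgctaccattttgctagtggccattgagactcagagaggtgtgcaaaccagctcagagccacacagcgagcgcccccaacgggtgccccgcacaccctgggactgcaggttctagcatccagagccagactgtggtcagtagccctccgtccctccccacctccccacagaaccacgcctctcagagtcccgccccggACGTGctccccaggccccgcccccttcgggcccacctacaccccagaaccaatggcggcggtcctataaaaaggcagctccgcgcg
Hk2: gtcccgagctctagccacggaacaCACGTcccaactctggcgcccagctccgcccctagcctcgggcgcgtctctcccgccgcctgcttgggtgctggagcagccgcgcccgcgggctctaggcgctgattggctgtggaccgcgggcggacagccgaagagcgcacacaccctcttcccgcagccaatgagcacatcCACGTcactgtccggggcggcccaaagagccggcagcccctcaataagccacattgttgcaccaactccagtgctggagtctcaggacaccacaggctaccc
Slc16a3: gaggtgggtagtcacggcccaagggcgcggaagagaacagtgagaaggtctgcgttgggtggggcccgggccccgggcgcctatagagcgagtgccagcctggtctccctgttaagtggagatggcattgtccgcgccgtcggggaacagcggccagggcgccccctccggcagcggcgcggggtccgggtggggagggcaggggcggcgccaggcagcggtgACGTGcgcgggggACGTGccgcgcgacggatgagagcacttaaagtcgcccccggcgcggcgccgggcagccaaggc
On either strand ACGTG occurred 1 time in the Slc2a1 window and 2 times in each of the others, GCGTG 1 time in that of Slc2a1 and 0 times in the others, and CACGTG, of which CACGT is a part, 0 times in all 3. Of the 32851 mouse promoters of this length, 19.6 percent hold ACGTG, 32.4 percent GCGTG and 7.15 percent CACGTG. These are counts of letters and say nothing of binding.

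The deposited intensities fall into 5 sets of arrays that appear to have been normalized separately. All comparisons are therefore made within a set, and values of different sets are not set against each other. One set holds iPSC G6Gm, G3, Dlx3RNAi, ESC R1 and uninfected MEF, another the SKM groups with MEF1 EV, one OKM with SOX1, SOX3, GMNN and SOX2, one OKM+EV with MEF2 EV, and the last ESC B6 alone. Differences are log2 of intensity plus 32, tested with limma in 1 fit over all arrays, and a gene passes at an adjusted p under 0.05 (Benjamini-Hochberg over all genes of a comparison). Calls of genes on pathway lists are from this fit only and were not looked up in any other. For the 4 genes a second fit of each set alone is given where it changes a call, for a reason that touches Slc2a1 and Hk2 most. OKM+EV replicate 3 correlated at 0.843 and 0.884 with its group, against 0.986 between the other replicates, and the OKM+SOX2 replicates correlated at 0.905, against at least 0.976 in the other 21 groups. The OKM+EV array alone held 59.4 percent of the residual sum of squares of Slc2a1, and the OKM+SOX2 arrays 34.7 percent each of that of Hk2. The residual SD of Slc2a1 was 1.40 log2 units in the OKM+EV set, against 0.13 in the SKM set, so the shared estimate of its spread is wide for the other sets. The labels do not state that replicates are separate cultures, so p-values measure the spread between arrays. Where arrays of groups are said not to overlap, the share of all genes for which this holds was not counted. Throughout, fewer cells of a type and less RNA per cell cannot be told apart.

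The pluripotent lines were set against uninfected fibroblasts first. All 4 genes were higher in all 4 lines, in a comparison in which 57.8 percent of 11991 genes passed. For Slc2a1, the basal uptake transporter, the arrays read 9132.5 and 9151 in G6Gm, 14028 and 10025 in G3, 12062 on both arrays of Dlx3RNAi and 14078 and 18716 in R1, against 1163 and 889 in uninfected MEF. The lowest pluripotent array thus lay several times above the highest MEF array, and the log2 fold change of the 4 lines was 3.53 (SE 0.37, limma adjusted p = 2.2e-09), which is 11.5-fold. Slc2a3, the embryonic and neuronal transporter, had the largest fold change of the 4. It read 17578 and 16300.0 in G6Gm, 22629 and 20471 in G3, 9285 and 11886 in Dlx3RNAi and 24059 and 27148 in R1, against 218 and 242 in uninfected MEF. The log2 fold change was 6.08 (SE 0.17, adjusted p = 1.7e-22), or 67.8-fold.

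Hexokinase and the lactate exporter rose too. Hk2 read 14266 and 13982 in G6Gm, 15128 and 14412 in G3, 13778 and 14608 in Dlx3RNAi and 18860.3 on both R1 arrays, against 2773 and 2493 in uninfected MEF. Its log2 fold change was 2.53 (SE 0.52, adjusted p = 0.00012), or 5.79-fold. Slc16a3 read 1839 and 1642 in G6Gm, 1728 and 1842 in G3, 2779.9 and 2567 in Dlx3RNAi and 2927 and 2969 in R1, against 408 and 445 in uninfected MEF. Its log2 fold change was 2.30 (SE 0.14, adjusted p = 9.1e-15), or 4.93-fold. Each line alone also passed for every one of the genes, with log2 fold changes over MEF from 3.13 to 3.95 for Slc2a1, 5.33 to 6.61 for Slc2a3, 2.41 to 2.83 for Hk2 and 1.95 to 2.70 for Slc16a3. Single lines passed for 40.2 percent of genes (G6Gm), 52.3 percent (G3), 48.3 percent (Dlx3RNAi) and 53.2 percent (R1), and these comparisons share the MEF arrays. Fold changes understate the change of dim genes because of the added 32.

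**Figure D1:**
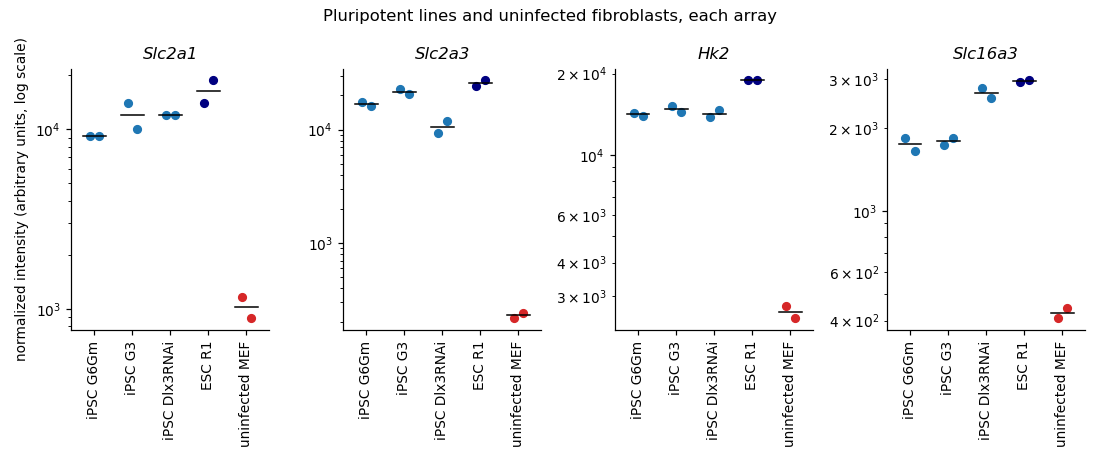
Normalized intensity (arbitrary units, log scale) of the 4 genes on each array of iPSC G6Gm, G3 and Dlx3RNAi, ESC R1 and uninfected MEF, with 1 point per array and a bar at the group mean. All pluripotent arrays lie above both MEF arrays for each gene, with the widest gap for Slc2a3, and R1 has the highest mean of each gene.

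Of 86 measured genes on 9 pathway lists, 39 rose and 15 fell, together 62.8 percent, not far above the 57.8 percent of all genes that passed. Of 13 measured glycolytic enzymes, 7 rose and 1 fell, with a median log2 fold change of 0.68, against 0.03 over all genes. Among them the phosphoglycerate mutase Pgam1 rose by 1.10 and the aldolase Aldoa by 0.85 on the log2 scale. Of 21 measured genes of HIF and its targets, 12 rose and 1 fell, with a median of 0.74. Egln3, a prolyl hydroxylase that acts on HIF, averaged 7793 ± 1315 in the 4 lines (SD, n = 8), against 449 ± 32.3 in uninfected MEF (SD, n = 2), or 4.01 on the log2 scale. Ankrd37, a HIF target, rose by 3.29, the stress-response gene Ndrg1 by 2.28 and Ddit4, an inhibitor of mTORC1, by 2.08. Hif1a itself was at -0.42 and did not pass.

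Among the 13 regulators of glycolysis and pyruvate entry, 5 rose and 1 fell, with a median of -0.01. Arrdc4 and Txnip, arrestins known to lower glucose uptake, rose by 2.77 and 1.62. The bifunctional enzyme Pfkfb3, which raises the activator of phosphofructokinase, rose by 1.56, while Pfkfb4 fell by 0.79. Of 9 other sugar transporters 3 rose and 2 fell (median 0.32), with Slc2a4 (GLUT4) at 0.73. Of 6 other monocarboxylate transporters and chaperones 3 rose and 1 fell (median 0.47), and Bsg, the chaperone of MCT4, averaged 11877 ± 2413 in the lines, against 7122 ± 75.5 in MEF (log2 fold change 0.71). In the pentose phosphate pathway 2 rose and 3 fell of 7 (median 0.24): transaldolase Taldo1 rose by 1.66 and the transketolase-like Tktl1 by 1.91, while H6pd fell by 1.26. Of 7 genes of mitochondrial pyruvate entry 1 rose and 3 fell (median 0.05), with the pyruvate dehydrogenase subunit Pdhb at 1.39 and the pyruvate carrier Mpc2 at -0.81. Of 7 glycogen and hexosamine genes 5 rose and 2 fell (median 0.78), with the branching enzyme Gbe1 at 1.14. Of 3 gluconeogenic genes 1 rose and 1 fell (median -0.29), and the mitochondrial Pck2 fell by 4.10, averaging 63.4 ± 11.1 in the lines and 1639 ± 513 in MEF.

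Marker levels bear on what the lines contain. Sox2 averaged 4947, 6778, 3922 and 6562 in G6Gm, G3, Dlx3RNAi and R1, against 114 in uninfected MEF, and Zfp42 2022, 2276, 1376 and 3097, against 37.6. The Pou5f1 probe was dim, with means from 124 to 527 in the lines and 35.4 in MEF. The sum over the 5 of 12 measured pluripotency markers ran from 9993 to 17897 on the pluripotent arrays and from 675 to 683 on the MEF arrays. The sum over 11 of 14 fibroblast markers ran from 35510.5 to 36754 in G6Gm, 13100.5 to 13334 in G3, 44776 to 50503 in Dlx3RNAi and 24439.8 to 26013 in R1, against 62814 to 68349.6 in uninfected MEF. The fibroblast sum was thus far from 0 in lines that were grown on fibroblasts, and was highest in Dlx3RNAi. Single markers differed. In G6Gm, G3, Dlx3RNAi and R1 Pdgfra averaged 175, 59.8, 133 and 80.7, against 2116.5 in uninfected MEF. Col1a2 averaged 10929, 2863, 11893 and 6457, against 8817. Among the lines Dlx3RNAi had the lowest Slc2a3, but its means of Slc2a1, where it overlapped G3, and of Slc16a3 were next to those of R1. The part of the markers in the results was not tested.

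Among the pluripotent lines, the question was whether the iPSC lines match an ESC line. R1 is the only ESC line of this set and is of another strain than the iPSC lines. Origin of the cells, strain and single line therefore cannot be told apart in any comparison with R1. Each of the genes had its highest mean in R1. The mean of the 3 iPSC lines was below R1 by 0.71 for Slc2a3 (adjusted p = 0.0067) and by 0.54 for Slc16a3 (adjusted p = 0.011), in a comparison in which 6.35 percent of all genes passed as lower. Both fell short of the threshold when an R1 array was left out: Slc16a3 without R1 replicate 1 (-0.55, adjusted p = 0.11) or replicate 2 (-0.53, adjusted p = 0.12), and Slc2a3 without R1 replicate 2 (-0.62, adjusted p = 0.14). Slc2a1 was at -0.57 (SE 0.39) and Hk2 at -0.39 (SE 0.54), neither of which passed (adjusted p = 0.39 and 0.73). With the set fitted alone, in which 14.4 percent of genes passed as lower, both did (adjusted p = 0.011 and 0.0034). No iPSC array overlapped the R1 arrays for any of the genes, although for Slc2a1 the higher G3 array, 14028, lay just under the lower R1 array, 14078. How common such a gap is among all genes was not counted.

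The iPSC lines did not all stand at the same distance from R1. Slc2a3 in Dlx3RNAi was 2.43-fold lower than in R1 (log2 fold change -1.28, adjusted p = 7.2e-05), in a comparison in which 19.4 percent of genes passed, while G6Gm was at -0.59 (adjusted p = 0.061) and G3 at -0.25 (adjusted p = 0.65). Slc16a3 had the other order. It was lower than in R1 by 0.75 in G6Gm (adjusted p = 0.0027, 17.6 percent of genes passed) and by 0.71 in G3 (adjusted p = 0.0083, 8.33 percent passed), whereas Dlx3RNAi was at -0.14 (adjusted p = 0.67). Dlx3RNAi against G6Gm (-0.69 for Slc2a3, adjusted p = 0.089; 0.61 for Slc16a3, adjusted p = 0.054) and G6Gm against G3 passed for none of the genes in the fit over all arrays, where 2.84 and 19.7 percent of all genes passed. Set directly against G3, Dlx3RNAi had less Slc2a3 (-1.03, adjusted p = 0.00063) and more Slc16a3 (0.57, adjusted p = 0.016), among 25.3 percent of genes that passed. The Slc16a3 differences of G3 from R1 and of Dlx3RNAi from G3 missed the threshold when single arrays were left out, with adjusted p up to 0.097 and 0.11. Slc2a1 and Hk2 of the single lines passed against R1 in none of these comparisons in the fit over all arrays, with Slc2a1 of G6Gm furthest at -0.83 (adjusted p = 0.26). With the set fitted alone more of these differences passed. Against R1 they were Slc2a1 and Slc2a3 of G6Gm (adjusted p = 0.0037 and 0.0042) and Hk2 of G6Gm (-0.42, adjusted p = 0.0063), G3 (-0.35, adjusted p = 0.025) and Dlx3RNAi (-0.41, adjusted p = 0.0066), where 35.3, 20.7 and 37.5 percent of genes passed in that order of lines. Between Dlx3RNAi and G6Gm, Slc2a3 and Slc16a3 passed (adjusted p = 0.0069 and 0.0050), among 14.9 percent of genes. For Dlx3RNAi and for G6Gm against G3 the calls were unchanged in that fit, with 43.9 and 35.3 percent passing. These comparisons share the R1 arrays or the Dlx3RNAi and G3 arrays.

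Of the 86 measured pathway genes, 4 were higher and 11 lower in the iPSC lines than in R1, the lower ones 12.8 percent, against 6.35 percent of all genes. Of the 21 HIF genes 0 were higher and 5 lower (median -0.31, against 0.01 over all genes). They included the HIF hydroxylase Egln1 at -1.32, the vasodilator peptide Adm at -1.16, Ddit4 at -0.90 and the angiogenic factor Vegfa at -0.76. Of the 13 glycolytic enzymes only the aldolase Aldoc passed, at -1.13 (median -0.16). Of the 13 regulators 2 were higher and 3 lower, among the lower Arrdc4 at -1.15, Pfkfb3 at -0.76 and Txnip at -0.70.

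In the SKM set, the question was what SKM alone does to fibroblasts. The lactate exporter changed most. Slc16a3 read 575 and 604 in SKM+EV, against 86.0 and 101 in MEF1 EV. This is 2.31 on the log2 scale (SE 0.18, adjusted p = 8.4e-12) or 4.97-fold, in a comparison in which 19.7 percent of genes passed. In MEF1 EV Slc16a3 stood at percentiles 6.2 and 7.6 of the genes on the array. Its fold change thus rests on a dim reading without a detection call. Slc2a3 read 352 and 285 in SKM+EV, against 158 and 152 in MEF1 EV, which is 0.90 on the log2 scale (SE 0.22, adjusted p = 0.0033). Without SKM+EV replicate 1 it was 0.76 and missed the threshold (adjusted p = 0.057). The transporter of most cells and hexokinase did not pass in the fit over all arrays. Their arrays did not overlap, but with 2 arrays a group such a gap may be common, and its share among all genes was not counted. Slc2a1 read 625 and 649 in SKM+EV, against 399.8 and 393 in MEF1 EV (log2 fold change 0.64, SE 0.47, adjusted p = 0.40). Hk2 read 8359 and 6134 in SKM+EV, against 3654 and 4176 in MEF1 EV (log2 fold change 0.87, SE 0.66, adjusted p = 0.42). With the set fitted alone, in which 34.1 percent of genes passed, both passed, at adjusted p = 0.0020 for Slc2a1 and 0.00025 for Hk2.

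Set against the same MEF1 EV arrays, each of the 10 SKM groups had more Slc16a3, with log2 fold changes from 1.30 in OCT4+SKM to 3.25 in SOX7+SKM. All 10 share the dim MEF1 EV reading of Slc16a3. The share of all genes that passed was 22.4 percent for OCT4, 39.4 for GATA6, 34.7 for SOX7, 18.5 for PAX1, 58.0 for GATA4, 48.3 for CEBPa, 52.8 for HNF4a, 50.6 for GRB2, 24.1 for MIXL1 and 19.7 for SKM+EV. Slc2a3 rose in 9 of the 10, up to 3.60 or 12.1-fold in GATA6+SKM, and PAX1+SKM was at 0.42 (adjusted p = 0.18, and 0.045 with the set alone). MIXL1+SKM lost this call when whichever of the 4 arrays was dropped, at adjusted p from 0.12 to 0.15. Slc2a1 rose in 3, GRB2+SKM at 1.30, CEBPa+SKM at 1.20 and HNF4a+SKM at 1.11 (adjusted p = 0.023, 0.036 and 0.048), and each missed the threshold without any 1 of its arrays. Hk2 rose in GATA6+SKM alone, by 1.91 or 3.75-fold (adjusted p = 0.020), a call that also failed without any 1 of the 4 arrays (adjusted p from 0.059 to 0.098). With the set fitted alone, Slc2a1 and Hk2 each passed in 8 of the 10, where the shares were 37.1, 53.4, 48.7, 35.8, 69.8, 61.6, 65.2, 62.8, 39.1 and 34.1 percent in the same order of groups. The mean of the 10 groups passed for Slc16a3 (2.26, adjusted p = 9.6e-15) and Slc2a3 (1.44, adjusted p = 1.8e-08), but not for Hk2 (0.80, adjusted p = 0.18) or Slc2a1 (0.70, adjusted p = 0.11), with 44.5 percent of genes passing. With the set alone these passed too (adjusted p = 1.2e-05 for Hk2 and 2.9e-05 for Slc2a1), with 59.3 percent passing.

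**Figure D2:**
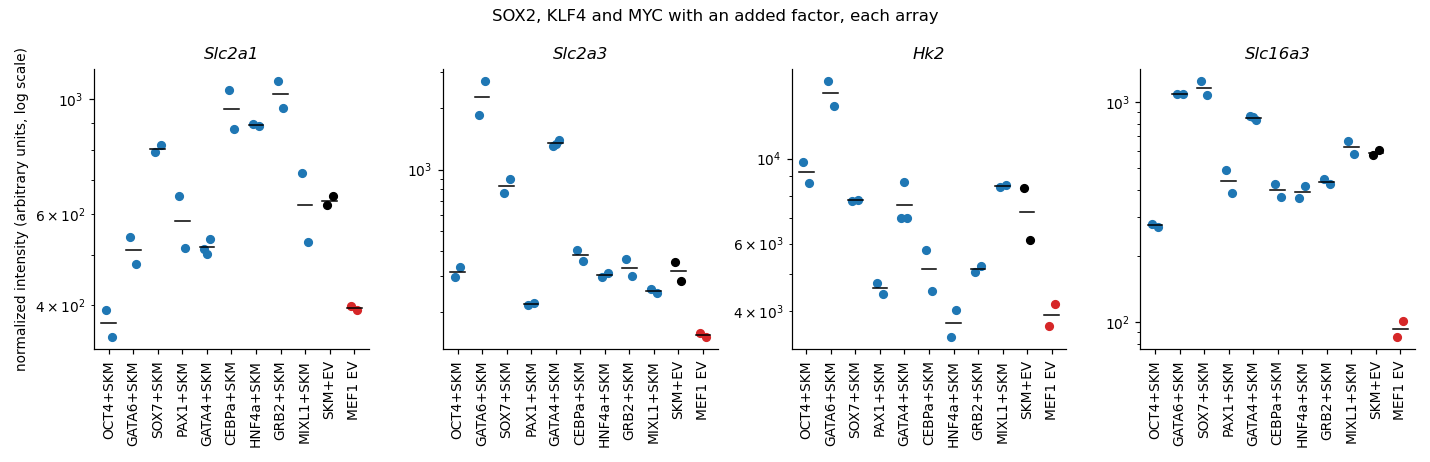
Normalized intensity (arbitrary units, log scale) of the 4 genes on each array of the 9 groups with an added factor and SKM, of SKM+EV and of MEF1 EV, with 1 point per array and a bar at the group mean. Slc16a3 lies lowest in MEF1 EV, at 86.0 and 101, and Slc2a3 stands highest in GATA6+SKM, at 1853 and 2702.

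Next to them, 14 of 75 measured pathway genes rose and 4 fell in SKM+EV against MEF1 EV, together 24.0 percent, against 19.7 percent of all genes. Of 10 measured glycolytic enzymes 5 rose and 0 fell (median 0.66, against -0.02 over all genes), with Aldoc at 1.15, pyruvate kinase Pkm at 0.79, the isomerase Gpi1 at 0.73 and Aldoa at 0.72. Of 17 HIF genes 3 rose and 0 fell (median 0.12), namely Egln3 at 2.49, Ddit4 at 1.38 and the carbonic anhydrase Car12 at 0.90. Of 6 pentose phosphate genes 3 rose (median 0.68), Rpia by 0.95, Pgls by 0.86 and Pgd by 0.64. Among the other transporters Slc2a13 fell by 1.06 and Slc16a9 by 0.73. The pyruvate dehydrogenase phosphatase Pdp1 fell by 1.68. The summed epithelial markers, 7 of 12 measured, were 107366 to 108664 in SKM+EV, against 2183 to 2532 in MEF1 EV, and the summed fibroblast markers, 11 of 14, were 142883 to 152568, against 178673 to 183681. Their part in these results was not tested.

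**Figure D3:**
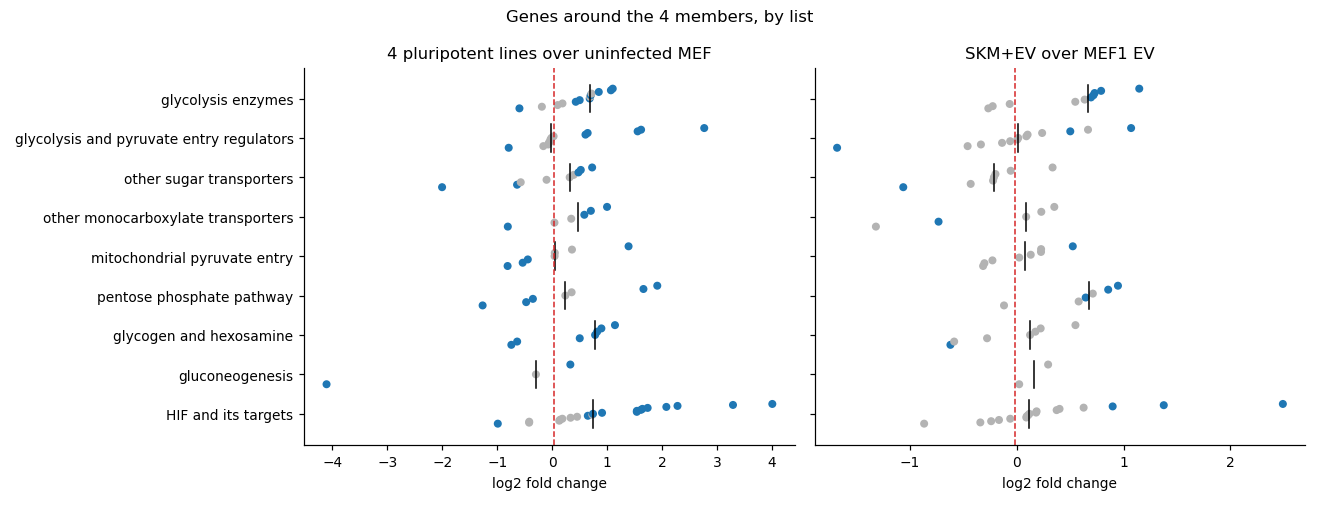
Log2 fold change of single genes, grouped by pathway list, for the 4 pluripotent lines over uninfected MEF (left panel) and SKM+EV over MEF1 EV (right panel). Blue dots passed the test and grey dots did not, a black bar is the list median and the red dashed line the median of all genes. The HIF list reaches furthest up in both panels, to 4.01 and 2.49 with Egln3, and the lowest dot of the left panel is Pck2 at -4.10.

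The question of the added factors is what each changes beyond SKM alone, and all 9 comparisons share the SKM+EV arrays. GATA6, GATA4 and SOX7 raised Slc2a3 and Slc16a3 together. Slc2a3 read 1853 and 2702 with GATA6, 1301, 1331 and 1395 with GATA4 and 765 and 898 with SOX7, against 352 and 285 in SKM+EV. The log2 fold changes were 2.70 (SE 0.22, adjusted p = 3.4e-11), 1.98 (SE 0.20, adjusted p = 2.5e-09) and 1.30 (SE 0.22, adjusted p = 9.2e-05), or 6.51-fold, 3.94-fold and 2.47-fold. The groups did not overlap, and in the other 6 comparisons Slc2a3 did not pass. The share of genes that passed was 22.0 percent for GATA6, 53.8 percent for GATA4 and 12.1 percent for SOX7, so a call is common with GATA4. With the set alone, where 66.2 and 24.8 percent passed with GATA4 and SOX7, these calls were the same, and PAX1 was also called lower (-0.47, adjusted p = 0.029). The mean of the 9 factors was 0.61 above SKM+EV for Slc2a3 (adjusted p = 0.0082, 23.2 percent of genes passing), which missed the threshold without SKM+EV replicate 1 (0.75, adjusted p = 0.052) or replicate 2 (0.47, adjusted p = 0.16).

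Slc16a3 separated the factors in both directions. It read 1245 and 1079 with SOX7, 1086 and 1087 with GATA6 and 862, 855 and 827 with GATA4, against 575 and 604 in SKM+EV. The log2 fold changes were 0.94 (adjusted p = 0.00039), 0.85 (adjusted p = 0.00051) and 0.50 (adjusted p = 0.010). It was lower with OCT4, at 279.6 and 271, a 2.02-fold difference (log2 fold change -1.02, SE 0.18, adjusted p = 0.00012) in a comparison in which 11.0 percent of genes passed. It was also lower with HNF4a, at 366 and 416 (-0.56, adjusted p = 0.012, 42.5 percent passed), and with CEBPa, at 426 and 369.8 (-0.53, adjusted p = 0.019, 34.6 percent passed). The smaller changes rested on single arrays. GATA4 missed the threshold without SKM+EV replicate 1 (0.47, adjusted p = 0.077). HNF4a missed it without SKM+EV replicate 2 (-0.52, adjusted p = 0.062) or HNF4a replicate 1 (-0.47, adjusted p = 0.10), and CEBPa without either SKM+EV array or its own replicate 2 (adjusted p from 0.067 to 0.16). PAX1 and GRB2, each at -0.41, passed only with the set alone (adjusted p = 0.024 and 0.013). Marker sums differed in these groups too. The epithelial sum was 58728 to 60388 with OCT4, 19571 to 20153 with HNF4a and 35950.0 to 37829.8 with CEBPa, against 107366 to 108664 in SKM+EV. It was low as well with PAX1 (17503.5 to 19834.5) and GRB2 (23771 to 24100), each with Slc16a3 at -0.41. With GATA4 it was also low (26775 to 29673), while Slc16a3 was higher. The epithelial sum was 113653 to 126705 with GATA6 and 89893 to 103376 with SOX7, where Slc16a3 was higher. With MIXL1, where Slc16a3 did not pass, the sum was 99066 to 101111. The neuron sum, over 4 of 7 markers, was 22797 to 23474 with OCT4, against 2009 to 2013 in SKM+EV. Their part in the Slc16a3 values was not tested.

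For Slc2a1 and Hk2 no added factor passed in the fit over all arrays. Slc2a1 read 1083 and 964 with GRB2, 1041 and 875 with CEBPa and 897 and 890.0 with HNF4a, against 625 and 649 in SKM+EV, and 392 and 348 with OCT4. With the set fitted alone these 4 passed, at 0.66 for GRB2 (adjusted p = 0.0010), 0.56 for CEBPa (0.0037), 0.47 for HNF4a (0.010) and -0.74 for OCT4 (0.0011), where 55.8, 50.1, 57.1 and 22.9 percent of genes passed. Hk2 read 15902 and 13691 with GATA6, against 8359 and 6134 in SKM+EV, a log2 difference of 1.04 (SE 0.66, adjusted p = 0.28, and 3.7e-05 with the set alone, where 35.1 percent passed). HNF4a was the lowest, at 3433 and 4039 (-0.94, adjusted p = 0.26, and 6.8e-05 with the set alone). PAX1, CEBPa and GRB2 were at -0.64, -0.49 and -0.47 and passed only with the set alone (adjusted p = 0.0040, 0.014 and 0.015), with 32.8 percent of genes passing for PAX1; in the fit over all arrays it was 15.7 percent for PAX1 and 40.3 percent for GRB2. MIXL1 passed for none of the genes in either fit, with 2.10 and 6.90 percent of all genes passing.

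**Figure D4:**
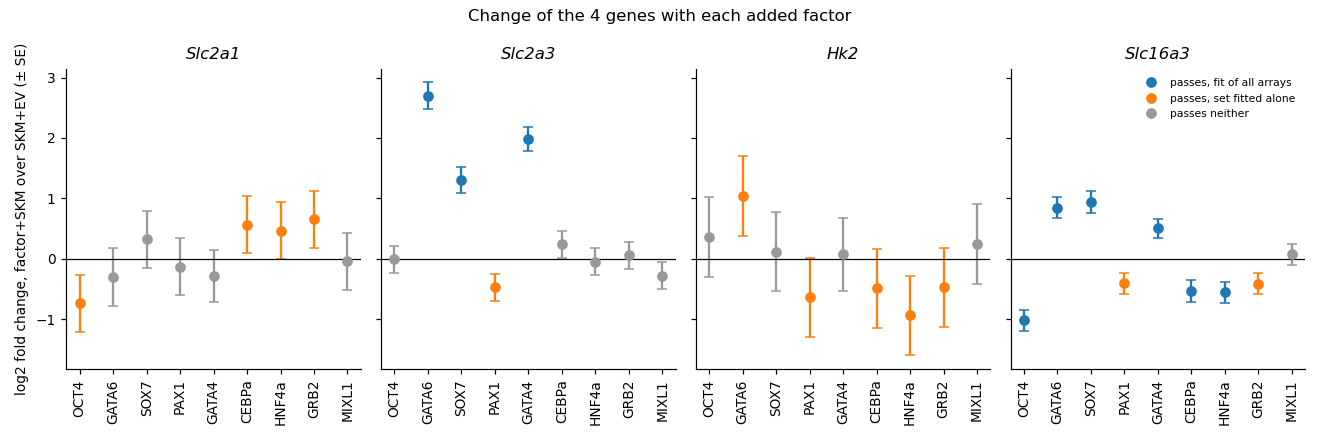
Log2 fold change with its standard error for each added factor with SKM over SKM+EV, 1 panel per gene. Blue marks pass in the fit over all arrays, orange marks only with the set fitted alone and grey marks in neither. Slc2a3 reaches 2.70 with GATA6, Slc16a3 runs from -1.02 with OCT4 to 0.94 with SOX7, and Slc2a1 and Hk2 hold no blue mark.

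CEBPa+SKM, HNF4a+SKM and GRB2+SKM, the highest groups for Slc2a1, also resembled each other across all genes. Their group means correlated at 0.993 to 0.994 with each other, against 0.885 to 0.946 with the other 8 groups, and their array medians were 412.6 to 416.1, against 400.8 to 408.1. What the groups share apart from the factor cannot be told apart from the factor. In each of them Bsg, the chaperone of MCT4, rose over SKM+EV, where 34.6 (CEBPa), 42.5 (HNF4a) and 40.3 (GRB2) percent of all genes passed. Slc16a3 passed as lower with CEBPa and HNF4a and, with the set alone, with GRB2. Bsg averaged 7632 ± 469.6 with CEBPa, 8651 ± 259.7 with HNF4a and 6702 ± 145 with GRB2, against 3039.8 ± 51.1 in SKM+EV (SD, n = 2 each). Slc16a11 rose by 2.05, 1.88 and 2.15 and Slc2a10 by 1.39, 1.44 and 1.35 in the same order. GATA4 had Bsg at -0.67, with Slc16a9 at 2.15 and the sugar transporter Slc2a12 at 2.98, which averaged 2214 ± 151 (SD, n = 3), against 253 ± 9.98 in SKM+EV (SD, n = 2).

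Over the 75 measured pathway genes the counts of higher and lower calls were 28 and 15 for GATA4, 17 and 11 for HNF4a and for GRB2, 16 and 10 for CEBPa, 11 and 6 for GATA6, 9 and 3 for SOX7, 4 and 3 for PAX1, 4 and 2 for MIXL1 and 2 and 5 for OCT4. Together these were 57.3, 37.3, 37.3, 34.7, 22.7, 16, 9.33, 8 and 9.33 percent in that order, against 53.8, 42.5, 40.3, 34.6, 22.0, 12.1, 15.7, 2.10 and 11.0 percent of all genes. Of 17 HIF genes 7 rose and 3 fell with GATA4, 3 rose and 1 fell with GATA6 and 4 rose and 0 fell with SOX7, with medians of 0.34, 0.11 and 0.31. Egln3 rose with each, averaging 10300.1 ± 659 with GATA4, 3052 ± 633 with GATA6 and 1845 ± 104 with SOX7, against 704 ± 188 in SKM+EV. Adm did not follow: it fell by 2.64 with GATA6 and by 2.10 with GATA4. Of 10 glycolytic enzymes 2 rose and 3 fell with GATA4, 1 rose and 1 fell with GATA6 and 2 rose and 1 fell with SOX7. Triosephosphate isomerase Tpi1 rose with all 3 (1.17, 0.82 and 0.95), and Aldoc rose by 2.90 with GATA4 and by 0.88 with SOX7. Among those that fell, Pklr was at -1.31 and Pkm at -0.53 with GATA4, and Pfkp at -0.50 with GATA6 and -0.75 with SOX7. With OCT4, 0 of the 10 enzymes passed. The summed fibroblast markers were 70660.1 to 71407 with GATA6, 100381 to 106798 with GATA4 and 111634 to 112821 with SOX7, against 142883 to 152568 in SKM+EV. The summed epithelial markers were 113653 to 126705, 26775 to 29673 and 89893 to 103376 in the same order, against 107366 to 108664. Their part in these results was not tested.

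Against OCT4+SKM, the combination that holds all of the classical factors, Slc16a3 was higher with each of the 8 other factors, by 0.46 to 1.96 in the fit over all arrays, where the share of all genes that passed was 23.1 percent for GATA6, 16.1 for SOX7, 17.2 for PAX1, 48.8 for GATA4, 41.8 for CEBPa, 46.3 for HNF4a, 43.5 for GRB2 and 9.32 for MIXL1. The Slc16a3 calls of PAX1, CEBPa and HNF4a did not hold throughout. They were lost without either OCT4+SKM array and without 1 array of PAX1 or CEBPa or either array of HNF4a, with adjusted p up to 0.25, 0.19 and 0.20. Slc2a3 was higher with GATA6 (2.71), GATA4 (1.98) and SOX7 (1.31). Slc2a1 was higher with GRB2 (1.39, adjusted p = 0.017), CEBPa (1.30, adjusted p = 0.027) and HNF4a (1.20, adjusted p = 0.037), calls that each failed when 1 array was left out. Hk2 passed in none, with values from -1.30 to 0.68. With the set alone Slc2a1 was higher in all 8, Hk2 was higher with GATA6 and lower with PAX1, CEBPa, HNF4a and GRB2, and Slc2a3 was also lower with PAX1 (-0.47, adjusted p = 0.030). The shares of all genes were then 36.5, 29.1, 32.4, 62.9, 55.1, 59.8, 57.6 and 23.8 percent, in the same order of factors. The 8 comparisons share the OCT4+SKM arrays.

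In the OKM sets the values were less stable. OKM+EV replicate 3, which stands apart over all genes, was far above the other replicates for every one of the genes but least so for Slc16a3. Slc2a1 read 199.8, 192 and 1740.1 in OKM+EV, against 226 and 172 in MEF2 EV. Hk2 read 3575, 3066 and 15772 in OKM+EV, against 4663 and 3164 in MEF2 EV. Slc2a3 read 469.8, 487 and 930.0 in OKM+EV, against 347 and 377 in MEF2 EV, and Slc16a3 442, 453 and 670.4, against 546 and 525. Only Slc2a3 did not overlap between the groups. It passed in the fit over all arrays (0.68, SE 0.20, adjusted p = 0.0070, with 40.8 percent of genes passing), but not without OKM+EV replicate 3 (0.37, adjusted p = 0.060), without MEF2 EV replicate 1 (0.63, adjusted p = 0.058) or with the set alone (adjusted p = 0.40, with 5.55 percent passing). Slc2a1 was at 0.98 (adjusted p = 0.070), and at -0.01 without OKM+EV replicate 3. Hk2 was at 0.53 (adjusted p = 0.50) and Slc16a3 at -0.06 (adjusted p = 0.80).

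The hexokinase that did differ there was Hk3, a form known from white blood cells, which averaged 97.4 ± 29.2 in OKM+EV (SD, n = 3) and 3909 ± 1429 in MEF2 EV (SD, n = 2), or -4.91 on the log2 scale. The summed macrophage markers, 6 of 8 measured, were 1288 to 5615 in OKM+EV, against 62024 to 65035 in MEF2 EV. Adipocyte markers, 5 of 8, summed to 13189.7 to 37373, against 55894 to 67942. Epithelial markers, 9 of 12, summed to 51755 to 83966 in OKM+EV, against 2449 to 3035 in MEF2 EV, and neuron markers, 5 of 7, to 13185 to 23039, against 1672 to 2035. The part of these in the results was not tested. Of the 83 measured pathway genes 21 rose and 15 fell, together 43.4 percent, close to the 40.8 percent of all genes, among them Bsg at 1.31, Egln3 at 2.34, Aldoc at 1.16 and the transporter Slc16a10 at -2.77. Of 13 glycolytic enzymes 2 rose and 1 fell, and of 21 HIF genes 7 rose and 2 fell. The Hk3 difference and these counts are from the fit over all arrays, which holds OKM+EV replicate 3. How far they rest on that array was not tested. With the set alone 5.55 percent of all genes passed, and the pathway genes were not counted there.

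In the set of OKM with a further factor the question was whether SOX1, SOX3 or GMNN (geminin, a replication licensing inhibitor) with OKM differ from SOX2 with OKM. All 3 comparisons share the OKM+SOX2 arrays. Slc2a3 read 798 and 616 with SOX1, 993 and 953 with SOX3 and 471 and 475 with GMNN, against 1759 and 1123 with SOX2. GMNN was 2.85-fold lower (-1.51, SE 0.22, adjusted p = 2.6e-05, and 0.021 with the set alone), with 7.23 percent of genes passing, or 2.03 percent with the set alone. It was also below the mean of SOX1, SOX3 and SOX2 (-1.01, adjusted p = 0.00032, 7.33 percent passing). SOX1 was lower at -0.97 (adjusted p = 0.011, 5.72 percent passing), but not without SOX1 replicate 2 (-0.79, adjusted p = 0.15), without SOX2 replicate 1 (-0.66, adjusted p = 0.29) or with the set alone (adjusted p = 0.27). SOX3 was at -0.52 (adjusted p = 0.16, 6.31 percent passing).

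The 3 Hk2 calls rest on 1 array. Hk2 read 3939 and 3864 with SOX1, 3881 and 3301 with SOX3 and 3649.6 and 2945 with GMNN, against 139 and 3152 with SOX2. The log2 fold changes of 2.42, 2.29 and 2.17 passed (adjusted p = 0.028, 0.033 and 0.038), and without OKM+SOX2 replicate 1 they were 0.31, 0.18 and 0.06 and did not (adjusted p = 0.93, 0.95 and 0.98). They were also lost without either array of the other group (adjusted p from 0.10 to 0.22). Slc16a3 read 938 and 1667 with SOX1, 766 and 763 with SOX3 and 743 and 831 with GMNN, against 548 and 540.0 with SOX2. SOX1 passed at 1.16 (adjusted p = 0.00028, and 0.23 with the set alone, where 0.215 percent of genes passed with SOX1 and 0.241 percent with SOX3), SOX3 and GMNN not, at 0.47 (adjusted p = 0.11) and 0.51 (adjusted p = 0.082). Slc2a1 lay between 238 and 338 on all 8 arrays and passed in no comparison. Of 82 measured pathway genes 7 rose and 0 fell with SOX1, 11 and 0 with SOX3 and 11 and 2 with GMNN, together 8.54, 13.4 and 15.9 percent, against 5.72, 6.31 and 7.23 percent of all genes. These counts are from the fit over all arrays, which holds OKM+SOX2 replicate 1, and how far they rest on that array was not tested. With the set alone 0.215, 0.241 and 2.03 percent of all genes passed, and the pathway genes were not counted there. Hk3 was higher with each, at 1.63, 1.44 and 2.24, and the summed macrophage markers were 3486 to 3964, 5319 to 5663 and 6712 to 7038, against 1038 to 1485 with SOX2. The summed epithelial markers, 10 of 12 measured, were 117050.0 to 123823 with GMNN, against 45901 to 46010.1 with SOX2. The part of either was not tested.

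**Figure D5:**
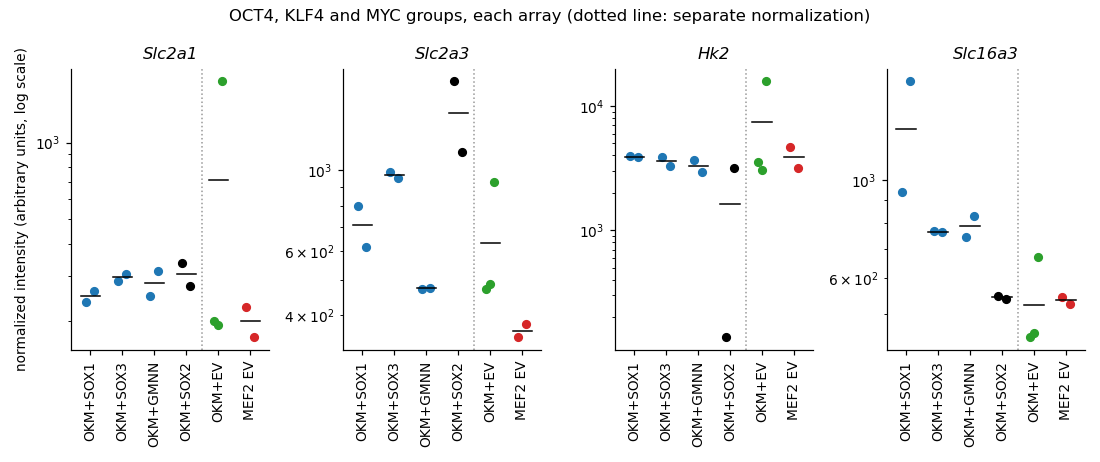
Normalized intensity (arbitrary units, log scale) of the 4 genes on each array of OKM with SOX1, SOX3, GMNN and SOX2, and, right of a dotted line that parts separately normalized arrays, of OKM+EV and MEF2 EV, with 1 point per array and a bar at the group mean. The single array far from its replicate is at 139 in OKM+SOX2 for Hk2 and at 1740.1 in OKM+EV for Slc2a1.

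Ordered by group mean in the SKM set, Slc2a1 ran from GRB2 (1024), CEBPa and HNF4a, which overlapped as neighbours, through SOX7 (803), to GATA6 (512), MEF1 EV (396) and OCT4 (370.3), with SKM+EV, MIXL1, PAX1, GATA4 and GATA6 overlapping in sequence. Slc2a3 ran from GATA6 (2278), GATA4 (1342) and SOX7 (832), none of which overlapped, through CEBPa, GRB2, SKM+EV, OCT4 and HNF4a (381 to 306), each overlapping the next, to PAX1 (219) and MEF1 EV (155). Hk2 ran from GATA6 (14796), OCT4 (9213) and MIXL1 (8497) to MEF1 EV (3915) and HNF4a (3736), which overlapped. Slc16a3 ran from SOX7 (1162) and GATA6 (1086), which overlapped, to OCT4 (275) and MEF1 EV (93.3). Slc2a1 thus stood lowest with OCT4, which was next to the highest group for Hk2.

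Over the 11 group means of the SKM set, which share a normalization and 1 probe per gene, Slc2a3 correlated with Slc16a3 at 0.77 and with Hk2 at 0.71, and Hk2 with Slc16a3 at 0.64. Slc2a1 stood apart, at -0.02 with Slc2a3, -0.34 with Hk2 and 0.31 with Slc16a3. Of 5003 genes above the median intensity, the most alike were Dok1 (0.98) and Glipr2 (0.95) for Slc2a1, Podxl (0.97) and the cardiac troponin Tnnt2 (0.95) for Slc2a3, Nfkb1 (0.96) and Car12 (0.95) for Hk2, and Gch1 (0.95) and Mecr (0.93) for Slc16a3. Over 22 groups, each centred on its set, the most alike of 4261 genes were Kdm1a (0.94), Qprt (0.93), Hat1 (0.87) and again Gch1 (0.89), for Slc2a1, Slc2a3, Hk2 and Slc16a3, and the 4 genes correlated with each other at 0.49 to 0.75. These are descriptions over few points.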

How the data were processed

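RNA was extracted with TRIzol and RNeasy columns and labelled with Cy5, per the labels. The deposited intensities were normalized by the authors; the background correction, software and detection calls were not stated in the labels used here. The 5 sets of arrays were told apart by which probes lack a value and by nearly coinciding sorted values, with medians from 295.9 to 434.2. Of 19426 probes, 15539 carried a gene symbol, and the other 3887 were not used. Symbols were brought up to date (13971 current, 1538 by synonym, 30 kept), giving 13852 genes.

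Values were tested as log2(intensity + 32) with limma 3.58.1 (R 4.3.3, trended variance), 1 fit over all 49 arrays with 1 term per group, compared within sets only and adjusted by Benjamini-Hochberg over all genes of the comparison at 0.05. The number of arrays limits the precision. Members and gene lists were chosen with earlier results of these data known. The genes named are the members, up to 4 passing genes per list and comparison with non-overlapping arrays and the largest change, up to 3 marker genes and the genes most correlated with each member; others were named after their values were seen (Hif1a). Alternatives were pseudocounts of 16 and 64, renormalization, median centring, each set alone, a replicate block, array weights, no variance trend, the mean of probes, a filter on dim genes and single arrays left out. The fits were also run on simulated data, whose outcome is not given here. Its noise had 1 size per gene and set, so it held no arrays that stand apart like those of OKM+EV and OKM+SOX2.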

Additional observations from a re-analysis of the deposited data

How the results depend on the processing

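Neither pseudocount nor the fit without a variance trend moved any of the 64 main log2 fold changes across the threshold, and no direction turned under any setting for a called value. The mean of probes moved none either, but with 1 probe a gene it left the values of the members as they were. The filter on dim genes changes only the adjustment of p-values, and it moved none of the values it kept across the threshold. Fitting each set alone passed 16 more, at unchanged size: Slc2a1 for SKM+EV (0.64), OCT4 (-0.74), CEBPa (0.56), HNF4a (0.47), GRB2 (0.66) and iPSC against R1 (-0.57); Hk2 for SKM+EV (0.87), GATA6 (1.04), PAX1 (-0.64), CEBPa (-0.49), HNF4a (-0.94), GRB2 (-0.47) and iPSC against R1 (-0.39); Slc16a3 for PAX1 (-0.41) and GRB2 (-0.41); and Slc2a3 for PAX1 (-0.47). It lost 6: Slc2a3 for OKM+EV (0.68) and SOX1 (-0.97), Hk2 for SOX1 (2.42), SOX3 (2.29) and GMNN (2.17), and Slc16a3 for SOX1 (1.16). Leaving out OKM+EV replicate 3 and OKM+SOX2 replicate 1, a setting chosen after seeing the data, passed the same 16 and lost Hk2 for SOX1 (0.31), SOX3 (0.18) and GMNN (0.056). Array weights, whose estimation stopped before full convergence, passed 11 of the 16 and lost Slc2a3 for OKM+EV (0.40) and SOX1 (-0.97). Slc16a3 for GRB2 passed after a second quantile normalization (-0.45) and after median centring (-0.48).

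With the replicate block, Slc2a3 for OKM+EV was lost (0.37, limma adjusted p = 0.057). It passed 12: the 6 Slc2a1 values and the Slc2a3 and Slc16a3 values for PAX1 and GRB2 above, and for OKM Slc2a3 with SOX3 (-0.52) and Slc16a3 with SOX3 (0.47) and GMNN (0.51). The labels do not say that a number marks a shared batch, and same-numbered arrays deviated together little (median correlation 0.008 in the SKM set, 0.065 among the lines, 0.017 and 0.17 in the OKM sets).

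With 1 array left out, where a lone array is assumed to vary like the other groups, the ranges of the main comparisons that crossed the threshold were 0.056 to 4.28, 0.31 to 4.53 and 0.18 to 4.40 for Hk2 with GMNN, SOX1 and SOX3. For Slc2a3 they were 0.37 to 0.84 for OKM+EV, -1.29 to -0.66 for SOX1, -0.83 to -0.20 for SOX3, 0.76 to 1.04 for SKM+EV and -0.79 to -0.62 for iPSC against R1. For Slc16a3 they were 0.47 to 0.54 for GATA4, -0.63 to -0.44 for CEBPa, -0.64 to -0.47 for HNF4a and -0.56 to -0.51 for iPSC against R1, and for Slc2a1 in OKM+EV -0.010 to 1.48. In the other comparisons of the 4 genes leaving out an array lost a call 50 times (Slc2a1 and Slc16a3 against OCT4+SKM, Slc2a1, Slc2a3 and Hk2 against MEF1 EV, Slc16a3 of G3 and Dlx3RNAi, Slc2a3 in the mean of the 9 factors) and gained 1, for Hk2 of GMNN against the mean of SOX1, SOX2 and SOX3 (0.60, and 1.30 without OKM+SOX2 replicate 2). Counts of genes that passed differed between the lowest and the highest setting by 1.83 to 74.4 times over the 46 comparisons. By over 5 times they differed for SOX3 (706, from 27 to 2010), SOX1 (640, 24 to 1581), Dlx3RNAi against G6Gm (340, 56 to 2631), OKM+EV (4879, 663 to 7118), MIXL1 (210, 76 to 690), the mean of the 9 factors (2323, 485 to 4075), GMNN against the mean of the SOX groups (820, 281 to 2206) and against SOX2 (809, 227 to 1575), G3 against R1 (999, 444 to 2988), MIXL1 against OCT4 (933, 438 to 2831) and iPSC against R1 (1624, 674 to 3894). For SKM+EV they ran from 1122 to 3410 (1970), and for the lines over MEF from 4594 to 8673 (6933). The causes were not tested. With 2 or 3 arrays a group, 1 probe a gene and no detection calls, small differences were not resolvable.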

Other observations

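ESC B6, whose 3 arrays form a set of their own, has no group to be compared with. Slc2a1 read 4627, 5496 and 4187 there, Slc2a3 30941, 26405 and 34129, Hk2 16449.7, 18047 and 17140.0, and Slc16a3 1298, 1461 and 1299.9. Hk2 was the same on both R1 arrays, at 18860.3, and Slc2a1 on both Dlx3RNAi arrays, at 12062, although no pair of arrays in the series had identical values throughout.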
